A study of Rattus norvegicus with 4 samples.

Results

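The genes described here are 46 rat genes of DNA replication and of the supply of its nucleotides, from the loading of the replicative helicase at origins to the repackaging of new DNA into chromatin. They were listed by name, as members of known complexes and steps, with earlier results of these data known, and the list used no threshold on measured values. All 46 were present among the 23360 gene symbols of the transcript tables, and all 46 passed the expression filter, a mean of at least 1 TPM, a length-normalised measure of transcript abundance. They were assigned to 10 complexes or steps. Polyadenylated RNA was sequenced from 4 cultures of INS-1 832/3 cells, a clonal rat insulinoma line that secretes insulin, carries a human insulin gene and was kept under Geneticin selection in every culture. In 2 cultures the cells grew as a standard 2D monolayer without hydrogel. In the other 2 the cells were 3D-bioprinted in GelXA LAMININK 411, a gelatin-based hydrogel with laminin-411, printed as grids and crosslinked by light. Both groups were kept in the same RPMI-1640 medium with serum and were harvested after 5 days at passage 3. The comparison asks how bioprinted 3D culture altered transcript levels against monolayer control. The labels call the cultures biological replicates without saying how they were separated, so the source of the spread between them is not known. The p-values rest on that spread in 2 samples per group, drawn towards the trend over all genes tested.

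DNA replication begins when the origin recognition complex, with CDC6 and CDT1, loads the MCM2-7 ring onto origin DNA, a step called licensing that geminin blocks outside its proper window. CDC45 and GINS then join MCM2-7 to form the active helicase, primase lays down primers, polymerases delta and epsilon extend them behind the PCNA clamp, and deoxynucleotides are made by ribonucleotide reductase and thymidylate enzymes. Most of these genes are classical targets of the E2F transcription factors and are transcribed around the entry into S phase. Adult beta cells rarely divide, whereas insulinoma lines such as INS-1 cycle continuously in culture.

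The cell line label was checked first. All 11 beta-cell markers passed the filter, with Ins2 called lower and Slc2a2 higher in 3D culture and with a median log2 fold change of 3D over 2D (log2 change below) of 0.039. Markers of other cells were near 0. Of 6 endothelial and 6 fibroblast markers, 5 each were listed and only Kdr and Pdgfra passed the filter, and none of the 5 leukocyte markers did. The summed level was 1.07 to 1.19 scaled TPM in 2D and 1.39 to 1.65 in 3D culture for the endothelial list, 1.89 to 1.97 and 2.21 to 2.33 for the fibroblast list, and 0.661 to 0.944 and 0.993 to 1.51 for the leukocyte list. Cdh5, Cldn5, Dcn, Lum and Ptprc were listed at 0 in all 4 samples. Each sample listed 19355 to 19959 transcripts above 0. The top 10 transcripts made up 23.4% and 24.2% of the total in the 2D cultures and 26.4% and 26.9% in the 3D cultures. TPM are divided by transcript length and sum to 1000000 in each sample, so levels can be compared between genes, but they keep no read depth and give no counting error. To remove the effect of a few very abundant transcripts, TPM were divided by a factor for each sample between 0.960 and 1.023, and these scaled TPM are the levels given below.

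Transcripts of the replication genes were lower in 3D culture across nearly the whole list. Of the 46 genes, 45 had a lower mean in 3D than in 2D culture, and 41 were called lower. A gene was called when its p from limma's moderated test of log2(scaled TPM + 1), adjusted over all 11960 genes tested, was below 0.05. No member was called higher, and none was higher at an unadjusted p below 0.05 in limma. Among all genes tested, 19.5% were called lower, 18.5% higher and 38.0% in either direction. At an adjusted p below 0.01, 27 members were called lower, against 5.80% of all genes tested. Both 3D values lay below both 2D values for 44 members, which was the case for 38.2% of all genes tested, and the groups overlapped only for Rfc5 and Pole. For no member did both 3D values lie above both 2D values, a pattern found in 37.3% of all genes tested. With 2 cultures against 2, the smallest two-sided p of an exact permutation test on 1 gene is 0.333.

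The changes were of moderate size. The median log2 change of the members was -0.45, with a range from -0.89 for Gins3 to 0.080 for Rfc5, while the median of all genes tested was -0.003 and their quartiles were -0.21 and 0.24. In linear terms, the median member kept 72.3% of its mean 2D level, 30 members were at least 25% lower in 3D culture and 7 were at least 40% lower. Summed over the 46 genes, the level was 3003 and 3101 scaled TPM in the 2D cultures and 2307 and 2324 in the 3D cultures, 24.1% lower. RNA was taken from whole cultures, so fewer cells carrying these transcripts and less RNA per cell cannot be told apart.

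The calls depended on both 3D cultures being present, whereas their median size changed little. With 1 culture left out, the fit has a single residual degree of freedom and assumes that the lone sample varies like the other group. Without 3D replicate 1, no member was called in limma, and few of all genes tested were called in either direction. The smallest adjusted p of a member was then 0.0651 in limma. Without 3D replicate 2, 10 members were called, with 245 genes lower and 388 higher. Leaving out 2D replicate 1 or 2 left 39 and 37 members called. Without 2D replicate 2, 1419 of all genes tested were called lower. The median log2 change of the members stayed between -0.47 and -0.42 in these 4 fits, and 42 of the 43 members with a value in all 12 other settings kept the sign of their change in each. Cdc45, Orc1 and Pole2, which a minimum of 5 TPM left out, kept it in the 11 settings that gave them a value. For the 44 members whose groups did not overlap, leaving out 1 culture could not turn the sign.

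**Figure D1:**
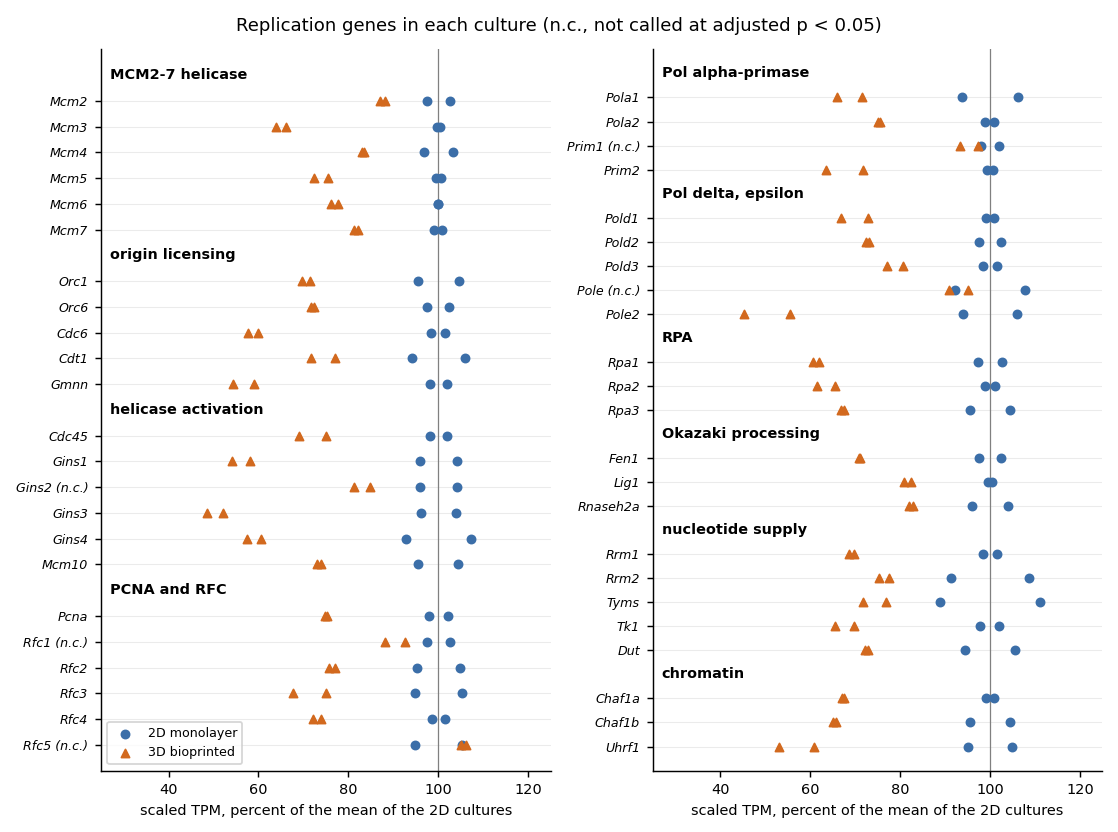
Level of each of the 46 genes in each culture, in percent of the mean of the 2D cultures (x axis), with genes grouped by complex or step (y axis). Circles are the 2 monolayer cultures and triangles the 2 bioprinted cultures, and n.c. marks the 5 genes not called. The triangles lie left of the circles for 44 genes, and the groups overlap for Rfc5 and Pole.

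The promoters of the members were searched for letters of motifs known from cell cycle genes. As most members are classical E2F targets, a high share of E2F motifs would follow from the list whatever their levels. RefSeq sequences on build GRCr8, from 250 bases before to 50 after the annotated start, were held for 40 of the 46 members. Mcm4, Orc1, Cdc6, Gins4, Rpa3 and Rrm2 had no entry. The letters TTTCCCGC, TTTCGCGC, TTTGCCGC and TTTGGCGC, forms of the E2F motif, were searched on both strands and counted also where matches overlap. They were found in 18 of the 40 members, and in 41.9% of the 43 promoters of these members, against 4.20% of the 9833 promoters of tested genes and 2.14% of all 33469 promoters. The 18 were Mcm2, Mcm3, Mcm5, Mcm6, Mcm7, Cdt1, Gmnn, Gins1, Gins3, Rfc3, Pola1, Pold3, Pole, Pole2, Rpa2, Lig1, Tyms and Uhrf1. They held 28 matches, 11 of them within 150 bases before the start and 9 after it. The 7 stretches shown are those of the helicase genes with a match wholly before the start and of Tyms, which encodes thymidylate synthase. They are written 5′ to 3′ on the strand of the gene, with E2F matches in capitals, and runs longer than 8 capitals are overlapping matches.
Mcm2, chr4:122918095-122918133, minus strand: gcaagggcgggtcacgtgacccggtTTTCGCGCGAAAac
Mcm5, chr19:13488575-13488812, plus strand: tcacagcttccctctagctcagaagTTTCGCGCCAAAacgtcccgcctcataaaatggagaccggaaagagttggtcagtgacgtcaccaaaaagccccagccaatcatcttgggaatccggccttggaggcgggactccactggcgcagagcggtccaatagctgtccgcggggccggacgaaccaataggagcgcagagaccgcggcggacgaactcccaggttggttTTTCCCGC
Mcm6, chr13:42404455-42404516, minus strand: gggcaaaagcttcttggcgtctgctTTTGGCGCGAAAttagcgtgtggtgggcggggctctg
Mcm7, chr12:22163198-22163428, minus strand: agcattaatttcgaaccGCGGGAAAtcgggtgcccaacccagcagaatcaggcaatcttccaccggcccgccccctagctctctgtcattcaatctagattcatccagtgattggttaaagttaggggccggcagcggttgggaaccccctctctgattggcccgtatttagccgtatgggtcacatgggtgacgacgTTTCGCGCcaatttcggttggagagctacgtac
Gins1, chr3:160184870-160184919, plus strand: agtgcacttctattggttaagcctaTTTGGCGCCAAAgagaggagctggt
Gins3, chr19:9434683-9434740, minus strand: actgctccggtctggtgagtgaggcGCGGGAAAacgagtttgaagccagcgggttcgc
Tyms, chr9:120776088-120776145, minus strand: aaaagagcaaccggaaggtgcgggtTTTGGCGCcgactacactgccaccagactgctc

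In Mcm2, Mcm5, Mcm6 and Gins1 the first match runs into a second on the opposite strand, which gives a run of 12 capitals. The run reads the same on both strands in Mcm2 and Gins1 and nearly the same in Mcm5 and Mcm6. Other letters were counted in the same windows. CCAAT, the letters bound by NF-Y, stood in 60.5% of the members' promoters against 37.7% of those of tested genes, and GGGCGG, a GC box, in 67.4% against 63.7%. TTTGAA, the core of the CHR element of mitotic genes, was found in 9.30% against 11.2%, and TATAAA in 2.33% against 6.21%. The median GC content was 60.0% for members and 61.3% for tested genes.

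The E2F letters did not separate the members by the size of their change. Of the 18 members with a match, 17 were called lower, with a median log2 change of -0.45 and a range from -0.89 to -0.096. Of the 22 without one, 18 were called lower, with the same rounded median of -0.45 and a range from -0.68 to 0.080. A match is a stretch of letters and was not tested as a binding site.

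**Figure D2:**
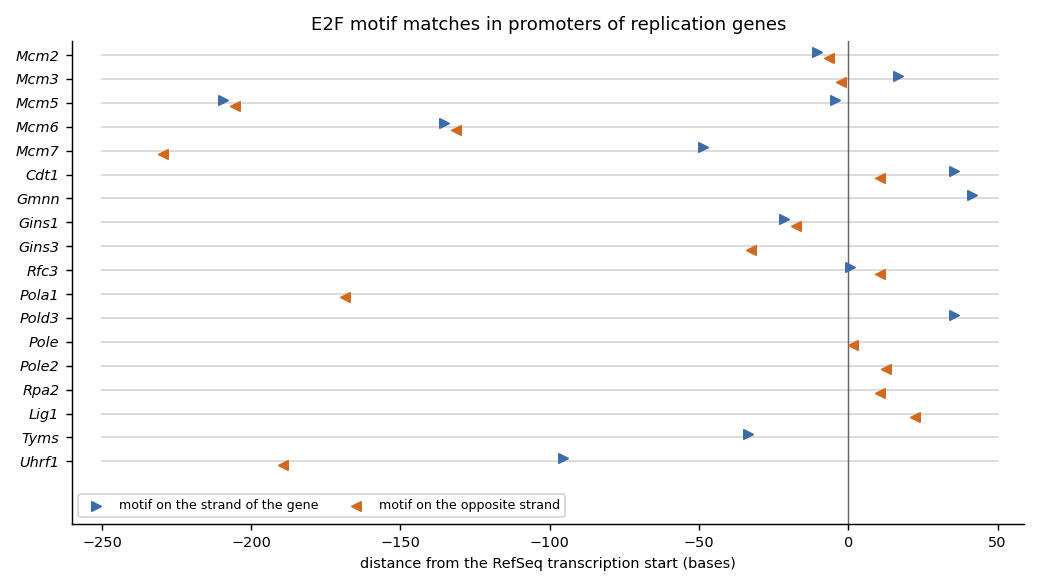
Positions of the E2F letters in the promoters of the 18 members that hold them, with distance from the annotated start in bases on the x axis and 1 line for each gene. Right-pointing marks are matches on the strand of the gene and left-pointing marks on the opposite strand, and 11 of the 28 matches lie within 150 bases before the start.

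All 6 genes of the MCM2-7 ring, the motor of the replicative helicase, fell in 3D culture, by 12.4% to 35.0%. Their summed level was 505 and 501 scaled TPM in the 2D cultures and 393 and 395 in the 3D cultures, 21.6% lower, with a median log2 change of -0.33. Mcm3 fell furthest. Its level was 56.6 and 57.1 scaled TPM in 2D and 36.3 and 37.6 in 3D culture, or 56.9 ± 0.315 against 37.0 ± 0.865 (SD, n = 2), which gave a log2 change of -0.61 (standard error, SE, 0.055, limma adjusted p = 0.0041). Mcm5 had 82.7 and 83.8 scaled TPM in 2D and 60.3 and 62.8 in 3D culture (log2 change -0.43, SE 0.054, limma adjusted p = 0.0059). In both genes the gap between the groups was many times the gap between replicates. Mcm6, the most abundant subunit, was at 123 in both 2D cultures and at 95.7 and 93.7 in the 3D cultures, and Mcm7 went from 103 and 105 to 84.4 and 85.3. The smallest falls were those of Mcm4, from 69.9 and 65.5 to 56.3 and 56.5 scaled TPM, and of Mcm2, from 70.1 and 66.6 to 60.2 and 59.5.

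The subunits of the ring assemble in equal number, but their transcripts were neither equal nor lowered in equal measure. The ratio of Mcm6 to Mcm3 levels was 2.17 and 2.16 in the 2D cultures and 2.63 and 2.50 in the 3D cultures. Mcm2 sat at the threshold, with a log2 change of -0.19 and a limma adjusted p of 0.0476, and it was not called in 6 of the 8 settings that kept all samples (adjusted p from 0.0513 to 0.1435 in those 6). Mcm4 was not called without scaling (limma adjusted p = 0.0666). Mcm5 is the only one of the 6 with more than 1 quantified transcript. The transcript with 68.5% of its TPM went from 58.1 and 59.8 to 39.1 and 41.4 scaled TPM, and the other from 24.6 and 24.0 to 21.2 and 21.4.

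All 5 licensing genes fell, and their sum was 34.8% lower in 3D culture. Gmnn, which encodes geminin, the inhibitor of CDT1, had 56.0 and 54.0 scaled TPM in 2D and 29.9 and 32.5 in 3D culture. The means were 55.0 ± 1.43 and 31.2 ± 1.81 (SD, n = 2), a log2 change of -0.80 (SE 0.065, limma adjusted p = 0.0037), and this was the smallest adjusted p of any member. Cdc6, the ATPase that helps load the MCM ring, went from 11.8 and 11.5 to 6.73 and 6.98 scaled TPM (log2 change -0.69, SE 0.072, limma adjusted p = 0.0046). Cdt1, its partner in loading, fell less, from 30.3 and 34.1 to 24.8 and 23.1 scaled TPM. The ratio of Gmnn to Cdt1 levels, inhibitor over target, was 1.85 and 1.58 in the 2D cultures and 1.21 and 1.41 in the 3D cultures, without overlap.

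The origin recognition complex was represented among the members by Orc1 and Orc6 only. Orc1, its cell cycle-regulated ATPase subunit, was the least abundant member, with 3.59 and 3.93 scaled TPM in 2D and 2.62 and 2.68 in 3D culture, 29.5% lower. At such low levels the added pseudocount of 1 shrinks the log2 change, which was -0.38. Orc6 was 27.9% lower, from 31.0 and 32.5 to 23.0 and 22.8 scaled TPM. The ratio of Orc6 to Orc1 ran from 8.27 to 8.79 over the 4 cultures, and its values in the groups overlapped. Of the further subunits, which are not members, Orc5 was called lower (log2 change -0.36, limma adjusted p = 0.0156). Orc2, Orc3 and Orc4 were not called, with log2 changes of 0.12, 0.16 and 0.20 (limma adjusted p from 0.135 to 0.309). Orc2 and Orc4 were higher in 3D culture without overlap.

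Helicase activation held the lowest log2 change of a single member, Gins3, although Pole2 fell by the same rounded share, 49.6%. The sum of this step was the lowest among the steps relative to 2D culture, close to that of chromatin (37.8% lower). The summed level of Cdc45, the 4 GINS genes and Mcm10 was 103 and 110 scaled TPM in the 2D cultures and 63.8 and 67.2 in the 3D cultures, 38.5% lower. Gins3 had 13.1 and 12.1 scaled TPM in 2D and 6.11 and 6.57 in 3D culture, so that its mean of 6.34 ± 0.327 (SD, n = 2) was 49.6% below the 2D mean of 12.6 ± 0.685 (log2 change -0.89, SE 0.081, limma adjusted p = 0.0041). Ordered by log2 change from the lowest, it ranked 83 of all 11960 genes tested. Gins1 went from 27.3 and 29.7 to 15.4 and 16.6 scaled TPM (log2 change -0.79, SE 0.074, limma adjusted p = 0.0041). Gins4 went from 37.0 and 42.7 to 22.9 and 24.2, a fall of 40.9%.

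GINS is built of 4 different proteins, and the change of its remaining gene was smaller. Gins2 had 9.25 and 10.0 scaled TPM in 2D and 7.82 and 8.17 in 3D culture, a difference of 17.0% that did not pass the threshold (log2 change -0.24, SE 0.079, limma adjusted p = 0.0593), although the groups did not overlap. The ratio of Gins4 to Gins2 was 4.00 and 4.26 in the 2D cultures and 2.93 and 2.96 in the 3D cultures. Cdc45, the third component of the active helicase, was low in all cultures and fell from 4.95 and 5.14 to 3.48 and 3.78 scaled TPM. Mcm10, which helps activate the helicase and shares only its name with the ring, fell from 11.3 and 10.4 to 8.01 and 7.93.

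**Figure D3:**
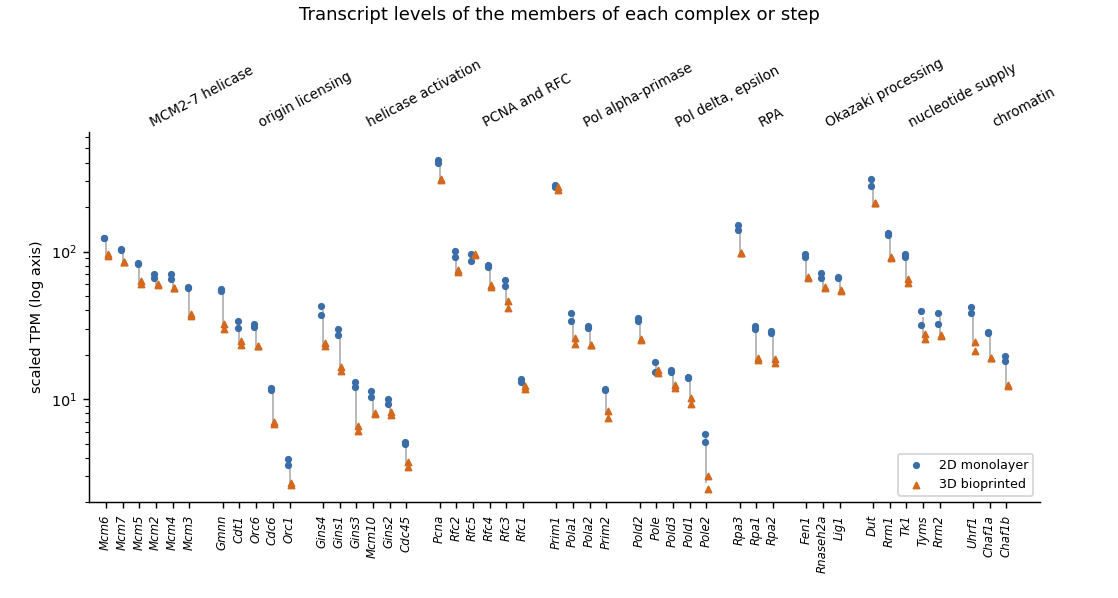
Level of each gene in scaled TPM on a log axis (y axis), with genes ordered within each complex or step by their mean in 2D culture (x axis). Circles are the 2 monolayer cultures, triangles the 2 bioprinted cultures and lines join the group means, and levels run from Pcna, with 401 and 418 scaled TPM in 2D culture, to Orc1, with 2.62 and 2.68 in 3D culture.

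Pcna, which encodes the sliding clamp that tethers the polymerases, was the most abundant member. Its level was 401 and 418 scaled TPM in 2D and 308 and 306 in 3D culture, or 409 ± 12.2 against 307 ± 1.44 (SD, n = 2), a log2 change of -0.41 (SE 0.055, limma adjusted p = 0.0065). The clamp is opened by replication factor C, a large subunit encoded by Rfc1 and 4 small ones. Rfc4 had 79.0 and 81.5 scaled TPM in 2D and 57.8 and 59.3 in 3D culture (log2 change -0.45, SE 0.054, limma adjusted p = 0.0055). Rfc2 fell from 92.2 and 101 to 73.2 and 74.6, and Rfc3 from 58.0 and 64.3 to 41.4 and 45.9. These 3 small subunits were 23.7% to 28.7% lower.

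The remaining subunits of the loader were not called. Rfc5 had 86.1 and 95.6 scaled TPM in 2D and 96.5 and 95.4 in 3D culture, the only member with a higher mean in 3D culture, and its groups overlapped (log2 change 0.080, SE 0.068, limma adjusted p = 0.380). Its ratio to Rfc4 was 1.09 and 1.17 in the 2D cultures and 1.67 and 1.61 in the 3D cultures. Rfc5 has 4 quantified transcripts, and the one with 66.4% of its TPM had 58.9 and 59.7 scaled TPM in 2D and 64.8 and 64.7 in 3D culture. Rfc1 had 13.7 and 13.0 scaled TPM in 2D and 11.8 and 12.4 in 3D culture, 9.54% lower without overlap, and was not called (log2 change -0.13, SE 0.070, limma adjusted p = 0.177). The large subunit was the least abundant of the 5 in every culture.

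In polymerase alpha-primase, which makes the primers of both strands, the polymerase subunits fell and the primase subunits differed. Pola2, the regulatory subunit, had 31.1 and 30.5 scaled TPM in 2D and 23.2 in both 3D cultures (log2 change -0.39, SE 0.057, limma adjusted p = 0.0076). Pola1, the catalytic subunit, had 38.3 and 33.9 in 2D and 23.8 and 25.8 in 3D culture (log2 change -0.52, SE 0.083, limma adjusted p = 0.0094). Pola1 has 3 quantified transcripts, and the one with 50.3% of its TPM went from 20.2 and 18.9 to 10.5 and 11.5 scaled TPM, while the next, with 41.5%, went from 15.4 and 12.4 to 10.7 and 12.0. For the second transcript, 3D replicate 2 lay just below the lower 2D value and 3D replicate 1 further below it.

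Prim2, the large primase subunit, fell from 11.6 and 11.7 to 7.40 and 8.35 scaled TPM (log2 change -0.51, limma adjusted p = 0.0098). Prim1, the catalytic primase subunit, was among the most abundant members, with 274 and 284 scaled TPM in 2D and 272 and 260 in 3D culture. Its groups were next to each other, 4.64% apart in their means, and it was not called (log2 change -0.068, SE 0.057, limma adjusted p = 0.369). The ratio of Prim1 to Prim2 was 23.7 and 24.2 in the 2D cultures and 36.7 and 31.2 in the 3D cultures. Prim1 made up most of the sum, and the summed level of the 4 genes was 9.96% lower in 3D culture.

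The replicative polymerases followed the same course with Pole as the exception. Pold2, an accessory subunit of polymerase delta, had 33.9 and 35.7 scaled TPM in 2D and 25.2 and 25.5 in 3D culture (log2 change -0.44, SE 0.060, limma adjusted p = 0.0066). Pold1, its catalytic subunit, fell from 13.9 and 14.1 to 9.34 and 10.2, and Pold3 from 15.3 and 15.7 to 12.5 and 12.0. Of polymerase epsilon, the leading strand enzyme, Pole2 had 5.11 and 5.77 scaled TPM in 2D and 3.02 and 2.46 in 3D culture, 49.6% lower (log2 change -0.79, SE 0.12, limma adjusted p = 0.0083). Pole itself, the catalytic subunit, had 17.9 and 15.3 in 2D and 15.1 and 15.8 in 3D culture. Its groups overlapped and it was not called (log2 change -0.096, SE 0.091, limma adjusted p = 0.431), and its sign turned, to 0.012, without 2D replicate 1. The ratio of Pole to Pole2 was 3.50 and 2.65 in the 2D cultures and 4.98 and 6.41 in the 3D cultures.

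Replication protein A, the heterotrimer that coats single-stranded DNA, fell as a whole. Rpa1 had 29.7 and 31.3 scaled TPM in 2D and 18.5 and 18.9 in 3D culture, or 30.5 ± 1.15 against 18.7 ± 0.30 (SD, n = 2), with a log2 change of -0.68 (SE 0.062, limma adjusted p = 0.0041). Rpa2 went from 28.9 and 28.2 to 17.5 and 18.7 scaled TPM (log2 change -0.63, SE 0.064, limma adjusted p = 0.0044). Rpa3, the smallest subunit, was far more abundant and went from 139 and 152 to 98.1 and 97.3. All 3 subunits were 32.8% to 38.7% lower. The ratio of Rpa1 to Rpa2 stayed between 1.01 and 1.11 in the 4 cultures, while that of Rpa3 to Rpa1 was 4.69 and 4.85 in 2D and 5.32 and 5.15 in 3D culture.

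Genes that finish the lagging strand fell by 17.5% to 29.0%. Fen1, the flap nuclease that trims Okazaki fragments, had 91.6 and 96.1 scaled TPM in 2D and 66.8 and 66.5 in 3D culture (log2 change -0.49, SE 0.055, limma adjusted p = 0.0051). Lig1, the ligase that seals them, had 66.7 and 67.4 in 2D and 54.2 and 55.2 in 3D culture (log2 change -0.29, SE 0.053, limma adjusted p = 0.0125). Rnaseh2a, the catalytic subunit of RNase H2, which removes ribonucleotides from DNA, went from 66.5 and 72.0 to 56.9 and 57.4 scaled TPM. Its 2 transcripts moved unequally, the more abundant from 37.9 and 41.3 to 35.0 and 35.3 and the other from 28.6 and 30.8 to 21.9 and 22.1. When each gene was represented by its most abundant transcript, Rnaseh2a was not called (limma adjusted p = 0.109).

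All 5 nucleotide supply genes fell, and their sum went from 581 and 600 scaled TPM in the 2D cultures to 418 and 425 in the 3D cultures, 28.6% lower. Rrm1, the large subunit of ribonucleotide reductase, had 134 and 130 scaled TPM in 2D and 92.1 and 90.7 in 3D culture, or 132 ± 2.82 against 91.4 ± 1.02 (SD, n = 2), a log2 change of -0.52 (SE 0.052, limma adjusted p = 0.0043). Tk1, the cytosolic thymidine kinase of the salvage route, had 92.0 and 96.0 in 2D and 61.6 and 65.6 in 3D culture (log2 change -0.56, SE 0.061, limma adjusted p = 0.0048). Dut, which keeps uracil out of DNA by splitting dUTP, was the most abundant of the 5 and fell from 278 and 310 to 212 and 214.

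The remaining nucleotide genes were noisier in monolayer. Rrm2, the small reductase subunit, had 38.3 and 32.2 scaled TPM in 2D and 26.6 and 27.3 in 3D culture, and Tyms, thymidylate synthase, had 39.6 and 31.8 in 2D and 25.6 and 27.5 in 3D culture. In both genes 2D replicate 1 was higher than 2D replicate 2. Rrm2 was not called without scaling or without the expression filter (limma adjusted p = 0.0732 and 0.0531). Tyms was not called in 4 of the 8 settings that kept all samples, with an adjusted p from 0.0510 to 0.0874 in those 4. The ratio of Rrm1 to Rrm2 was 3.49 and 4.03 in the 2D cultures and 3.47 and 3.32 in the 3D cultures, with 3D replicate 1 just below the lower 2D value.

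Genes that restore chromatin behind the fork fell by 32.7% to 43.0%. Chaf1a, the large subunit of the histone chaperone CAF-1, had 28.1 and 28.6 scaled TPM in 2D and 19.0 and 19.1 in 3D culture (log2 change -0.55, SE 0.058, limma adjusted p = 0.0046). Chaf1b, its partner, went from 18.0 and 19.7 to 12.4 and 12.3. Uhrf1, which brings the maintenance DNA methyltransferase to newly made DNA, had 42.1 and 38.3 in 2D and 21.3 and 24.5 in 3D culture, a log2 change of -0.79 (SE 0.090, limma adjusted p = 0.0051). The 2 CAF-1 subunits fell by close to the same share, 32.7% and 34.5%.

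The medians of the 10 steps ran from -0.29 for lagging strand completion to -0.63 for replication protein A. Differences between steps were not tested, since each holds only 3 to 6 genes. Some measured features touch single members. In RefSeq annotation of GRCr8, Gins2, Pole2, Fen1, Lig1, Rrm2 and Uhrf1 overlap another protein-coding gene. The library kit keeps strand, and whether the quantification used it is not given in the sources used here. For 34 members the tables held 1 transcript and for 12 more than 1.

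Further genes of replication, nucleotide metabolism and chromatin replication, which are not members, were called lower more often than higher. The shares called lower were 44.1%, 53.3% and 35.7% of those tested, against 19.5% of all genes tested, of which 18.5% were called higher. Of 35 further replication genes, 34 were tested, 15 were called lower and none higher in limma (19 and 1 at an unadjusted p below 0.05), with a median log2 change of -0.27. The smallest p was that of Rnaseh2c, an accessory subunit of RNase H2, with 42.3 and 44.8 scaled TPM in 2D and 23.9 and 24.4 in 3D culture (log2 change -0.83, limma adjusted p = 0.0035), and the next that of Timeless, a fork protection factor, with a log2 change of -0.54. Of 30 further nucleotide metabolism genes, 16 were called lower and none higher in limma (16 and 1 at an unadjusted p below 0.05), with a median of -0.26. They were led by Nme1, a nucleoside diphosphate kinase (log2 change -0.55), and Umps, which makes UMP (-0.37). Of 14 further chromatin replication genes tested, 5 were called lower and 1 higher. Asf1b and Nasp, histone chaperones, had log2 changes of -0.64 and -0.48, whereas Supt16h, a subunit of the FACT complex, rose from 34.6 and 34.1 to 43.9 and 42.9 scaled TPM (log2 change 0.33, limma adjusted p = 0.0105).

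All 25 mitosis genes tested were called lower, with log2 changes from -0.71 to -0.32, a median of -0.50 and a sum 30.9% lower in 3D culture. Cdc20, the activator of the anaphase-promoting complex, went from 85.6 and 92.3 to 52.0 and 55.6 scaled TPM, and Aurkb, a mitotic kinase, from 60.7 and 59.8 to 40.9 and 39.8. The regulators of the E2F and RB pathway were divided. Of 28 tested, 11 were called lower and 3 higher, with a median log2 change of -0.20. These were 39.3% and 10.7%, against 19.5% and 18.5% of all genes tested. Cdkn1a, the p21 inhibitor of cyclin-dependent kinases, fell from 53.3 and 49.0 to 18.6 and 22.2 scaled TPM, and Ccnd3, a D-type cyclin, from 32.9 and 30.5 to 18.7 and 19.0. Ccnd2, another D-type cyclin, rose from 76.8 and 63.1 to 113 and 109 (log2 change 0.67, limma adjusted p = 0.0081). E2f5, an E2F factor of the repressive kind, and Rb1, the retinoblastoma protein gene, rose with log2 changes of 0.33 and 0.31 (limma adjusted p = 0.0197 and 0.0466). E2f5 was not called without the expression filter (limma adjusted p = 0.0523), and Rb1 was not called without the filter, without scaling or by its most abundant transcript (0.117, 0.0618 and 0.0540).

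**Figure D4:**
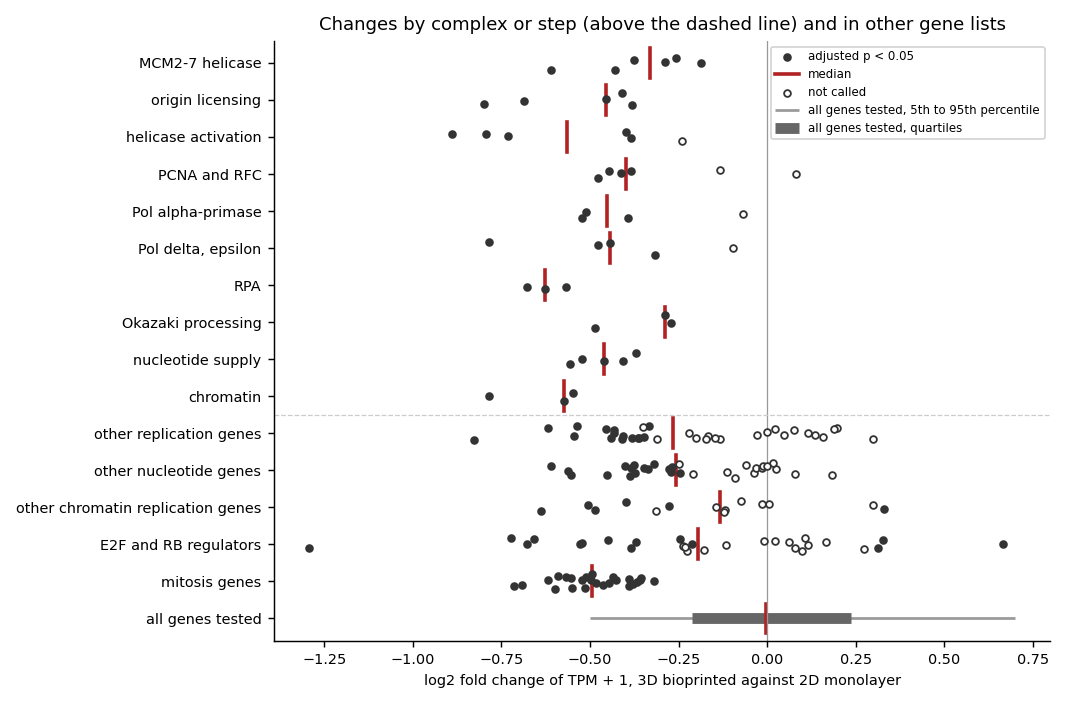
Log2 change of TPM + 1, 3D against 2D culture (x axis), for each gene of the 10 complexes or steps and of the further lists (y axis). Filled points were called at an adjusted p below 0.05, open points were not, red bars are medians and the bottom line shows the quartiles and the 5th to 95th percentiles of all genes tested, which were -0.50 and 0.70. The medians of the 10 complexes or steps lie between -0.63 and -0.29.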

How the data were processed

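The authors made the deposited values from single-end reads of stranded poly(A) libraries of 4 cultures. Per the submitters' processing notes and the methods, quality was checked with FastQC 0.11.8 and transcripts were quantified with Salmon 1.2 against rn4 with the human insulin gene added. The authors deposited TPM per transcript, written with decimal commas, normalized for length and summing to 1000000 per sample. These values hold no counts, so the gene-level count test of the methods was not repeated, and the read depth of each sample cannot be taken from them.

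TPM were summed per gene symbol over 31201 transcripts, and the 11960 genes with a mean of at least 1 TPM were kept. For scaling between samples, the trimmed mean of M values was taken without weights, with 30% of M values and 5% of A values dropped at both ends. Then log2(scaled TPM + 1) was tested with limma 3.58.1 in R 4.3.3, with an empirical Bayes trend and Benjamini-Hochberg adjustment over all genes tested. The fit was also run on simulated data with few changed genes and independent noise, which does not measure its errors in these data. The added pseudocount of 1 shrinks the fold changes of weakly expressed genes. Groups came from the sample labels.

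The members and lists were chosen with earlier results of these data known. In each step, the 2 members with the smallest p and those that were not called or ran against the step's median are given with every value. Of each further list, the 2 genes with the smallest p and up to 3 called against its direction are named, and 1 further list is not reported here. Percentages lower and ratios use scaled TPM. Motifs were searched in RefSeq promoter sequences. Alternatives were no scaling, median-of-ratios scaling, a pseudocount of 0.1, no filter, a minimum of 5 TPM, a replicate block, no trend, the most abundant transcript, an adjusted p below 0.01, and each culture left out.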

Additional observations from a re-analysis of the deposited data

How the results depend on the processing

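Directions were kept in more members than calls, but for the 44 members without overlap leaving out 1 culture could not turn them. Of the 46 members, 33 were called lower in all 8 settings that kept every sample, 3 (Cdc45, Orc1 and Pole2) in the 7 of these that tested them, and Mcm2, Mcm4, Rnaseh2a, Rrm2 and Tyms were lost in at least 1 of them. None was called in every setting, because no member was called without 3D replicate 1. The only value to reverse was the log2 change of Pole, which ran from -0.20 to 0.012 with each culture left out and was positive without 2D replicate 1. The cause of these shifts was not tested. At an adjusted p below 0.01 in limma, by construction fewer genes pass: 694 of all genes lower, 724 higher and 27 members lower. With each culture left out in turn, genes called lower ran from 4 to 2179, genes called higher from 33 to 2277 and members called lower from 0 to 39. These fits have 1 residual degree of freedom.

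The median log2 fold changes by step moved by more than the spread between replicates in these cases. Without scaling they were -0.29 for MCM2-7, -0.40 for polymerases delta and epsilon, -0.59 for replication protein A and -0.53 for chromatin. A pseudocount of 0.1 gave -0.61 for chromatin. Without the filter they were -0.37 for MCM2-7, -0.48 for polymerases delta and epsilon and -0.61 for chromatin. With a minimum of 5 TPM, which left out 3 members, they were -0.31 for MCM2-7, -0.55 for licensing, -0.71 for helicase activation, -0.36 for polymerases delta and epsilon and -0.55 for chromatin. With each culture left out they ran from -0.48 to -0.41 for polymerases delta and epsilon, -0.67 to -0.58 for replication protein A, -0.53 to -0.45 for nucleotide supply and -0.63 to -0.53 for chromatin.

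Samples with the same replicate number did not deviate together (correlation of deviations -0.006 over 11960 genes). This cannot tell whether they were made as pairs, which the labels do not say. A fit with the replicate block called 2364 genes lower and 2450 higher and 40 members lower, with Mcm2 lost. TPM keep no depth, so the limit is the spread of 2 cultures per group.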
